A study of Homo sapiens with 15 samples.

Results

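The 8 subunits of condensin I and condensin II were taken by gene symbol from a table of 17272 genes measured in LNCaP cells, an established androgen-sensitive human prostate cancer line. SMC2 and SMC4 belong to both complexes, NCAPD2, NCAPG and NCAPH to condensin I, and NCAPD3, NCAPG2 and NCAPH2 to condensin II. All 8 symbols had a row, and all 8 passed the filter on low expression, a mean of at least 0.5 CPM (counts per 1000000 reads with a rescaled library size, as deposited) over all libraries. The cells had been kept for 2 days in medium with charcoal-stripped serum, which is poor in androgen. They then received for 22 h either 1 nM R1881, a synthetic androgen, with DMSO (10 libraries, R1881 + DMSO), or 1 nM R1881 with 2 µM enzalutamide, an inhibitor of androgen signalling (5 libraries, R1881 + enzalutamide). Both groups thus received androgen, and the comparison shows what differed when its signalling was inhibited. One cell line was used. The study's methods call the libraries biological replicates, but neither they nor the labels say that these came from separate cultures, so p-values measure the spread between these libraries, which may be technical.

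Between 15830745 and 25416052 reads per library were assigned to genes. The markers of luminal prostate cells KRT8, KRT18, HOXB13 and FOLH1 were present in every library at 211 CPM or more. Their levels were not the same in the 2 groups. Means with R1881 + DMSO and with enzalutamide were 1581 and 348.5 CPM for KRT8 and 925.5 and 223.5 CPM for KRT18. They were 283 and 316.2 CPM for HOXB13 and 739.9 and 1526 CPM for FOLH1. Of the markers of other cell types, KRT5, TP63, DCN, PTPRC and PECAM1 had no row in the table, KRT14 was at most 1.44 CPM, COL1A1 ranged from 4.38 to 12.3 CPM, and COL3A1 had means of 1.84 CPM with R1881 + DMSO and 11.96 CPM with enzalutamide. As a check of the treatment, the androgen-induced genes KLK2, TMPRSS2 and FKBP5 had log2 fold changes of -4.87, -3.56 and -4.99, and no library of a group reached into the range of the other for any of them. The sample descriptions number the R1881 + DMSO libraries 51 to 55 and 71 to 75 and the enzalutamide libraries 81 to 85, without saying what the numbers stand for. Since every enzalutamide library lies in the last series, a difference between number series and the effect of enzalutamide cannot be told apart.

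Condensins are ring-shaped complexes that fold chromatin into loops with the energy of ATP, and they shape the chromosomes of dividing cells. Each complex joins the SMC2 and SMC4 ATPases to a kleisin subunit, which closes the ring, and to a pair of HEAT-repeat subunits. Condensin I is largely cytoplasmic in interphase and reaches the chromosomes after the nuclear envelope breaks down, whereas condensin II is nuclear throughout the cell cycle and starts compaction in prophase. Condensin I holds NCAPH, NCAPD2 and NCAPG, and the counterparts in condensin II are NCAPH2, NCAPD3 and NCAPG2.

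All 8 subunit genes were lower with R1881 + enzalutamide than with R1881 + DMSO, and a single one, NCAPD3 of condensin II, fell by far more than the others. The mean of NCAPD3 went from 1907 to 72.3 CPM, a 26.4-fold difference, while the means of the other 7 genes were 1.30-fold to 2.43-fold lower. Among these, NCAPG and NCAPH of condensin I and NCAPG2 of condensin II had the larger changes, and the shared ATPases, NCAPD2 and NCAPH2 the smaller ones. The test was limma on log2(CPM + 0.5) with Benjamini-Hochberg adjustment over 17046 genes, and it called 8 of 8 subunits lower and 0 higher at an adjusted p under 0.05. Of all genes tested, 32.7% were called lower (5577 genes) and 29.8% higher (5083 genes), a split that became 4288 lower and 6629 higher when the library totals were set to 1000000. The 2 groups did not overlap for 7 of the 8 subunits, beside 20.1% of all genes that were lower without overlap. The median log2 fold change was -0.72 over the 8 subunits and -0.01 over all genes tested. In bulk RNA of this kind, fewer dividing cells and less RNA per cell cannot be told apart.

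**Figure D1:**
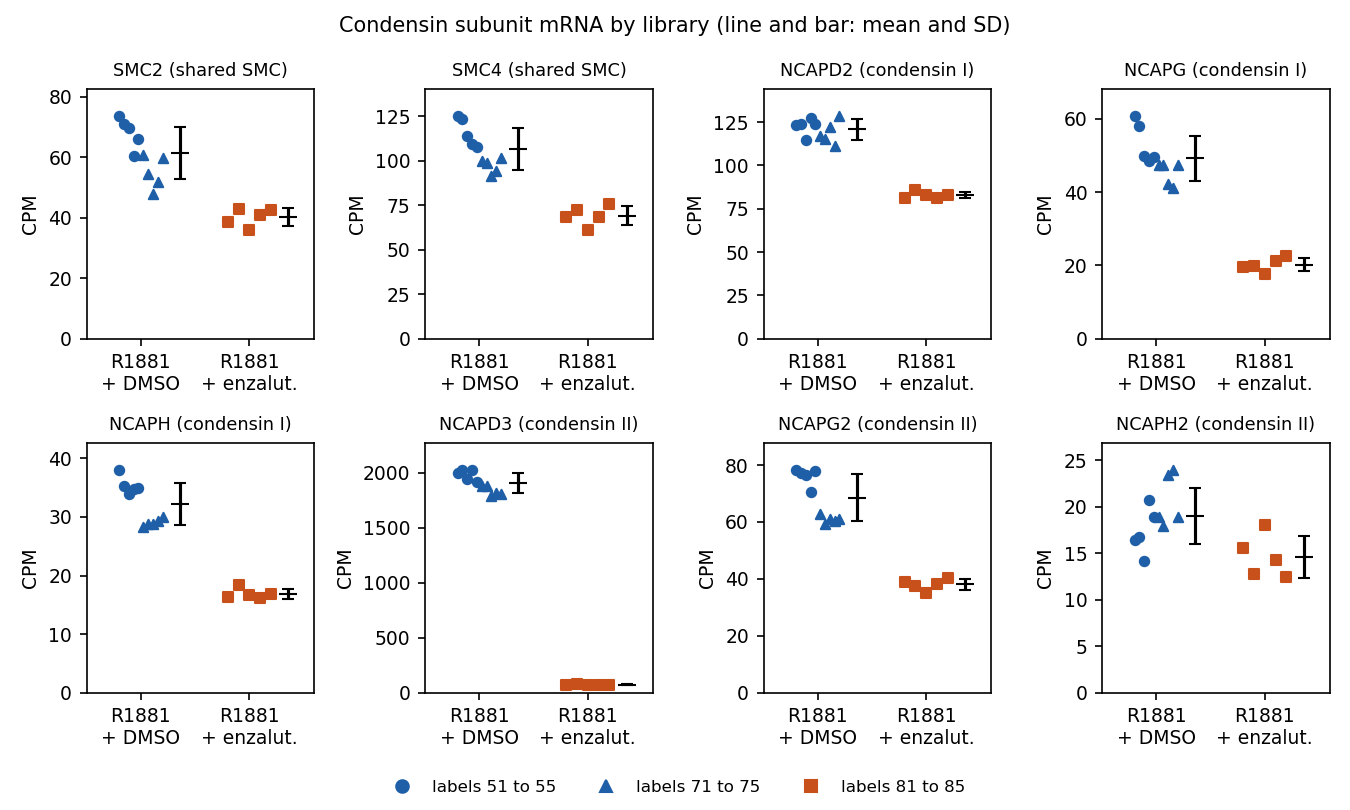
Expression of the 8 condensin subunit genes in each library, in CPM, with a panel for each gene on its own linear axis. R1881 + DMSO and R1881 + enzalutamide libraries are separate points, with the mean and SD of each group beside them. NCAPD3 lies between 1785 and 2026 CPM with R1881 + DMSO and between 68.5 and 74.7 CPM with enzalutamide, and the groups overlap for NCAPH2 alone.

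All 8 genes were lower with enzalutamide, NCAPD3 by far the most. The promoter sequence of NCAPD3 is therefore shown beside those of NCAPG, the condensin I subunit with the largest change, and NCAPD2, the counterpart of NCAPD3. RefSeq (GRCh38.p14) listed promoters for 7 of the 8 genes, as windows of 300 bases from 250 before to 50 after a transcription start, and NCAPH2 had no entry. Each window was searched on both strands for the CCAAT box (CCAAT), the cell cycle homology region CHR (TTTGAA or TTCGAA), E2F sites (TTCCCGC or TTGGCGC), and the hexamer AGAACA of the androgen response element, alone and as an inverted repeat with a spacer of 3 bases. Matches are printed in capitals, on whichever strand they lie. Shown 5′ to 3′ are the longest stretches before each start that overlap no annotated untranslated region. They are chr11:134225505-134225711 on the minus strand for NCAPD3 (the first of its 2 listed starts), chr4:17810758-17810978 on the plus strand for NCAPG, and chr12:6493852-6494092 on the plus strand for NCAPD2.
NCAPD3: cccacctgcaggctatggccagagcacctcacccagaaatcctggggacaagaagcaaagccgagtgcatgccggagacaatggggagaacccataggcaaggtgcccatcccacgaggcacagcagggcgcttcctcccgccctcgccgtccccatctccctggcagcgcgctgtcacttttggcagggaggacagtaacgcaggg
NCAPG: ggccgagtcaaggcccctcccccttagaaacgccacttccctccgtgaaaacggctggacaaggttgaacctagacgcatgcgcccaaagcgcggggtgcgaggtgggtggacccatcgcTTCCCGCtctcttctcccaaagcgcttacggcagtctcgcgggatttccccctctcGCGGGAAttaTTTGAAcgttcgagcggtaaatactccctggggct
NCAPD2: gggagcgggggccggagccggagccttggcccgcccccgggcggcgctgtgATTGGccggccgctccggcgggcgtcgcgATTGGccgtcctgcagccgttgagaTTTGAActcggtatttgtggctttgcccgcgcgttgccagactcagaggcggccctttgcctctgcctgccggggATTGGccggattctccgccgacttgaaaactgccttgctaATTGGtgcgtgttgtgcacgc

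Positions are counted from the transcription start as 1, with the base before it as -1, and refer to the leftmost base of a match. The NCAPG window held a CHR at -35 and E2F sites at -101 and -45, which do not overlap one another. NCAPD2, whose printed stretch lies within the annotated span of the gene, held CCAAT boxes at -199, -170, -70 and -30 and a CHR at -145. The first NCAPD3 window held none of the motifs searched. Its second, around a start within the gene (chr11:134223918-134224217), held CCAAT boxes at -110 and -45, a CHR at -3 and an E2F site at -249. Of the other subunits, NCAPH had a CCAAT box at -112, NCAPG2 a CHR at 36, SMC4 a CHR at -75 and SMC2 a CHR at -3, each in one window, and a second SMC2 window had the androgen hexamer at -219.

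Of all 35116 RefSeq promoter windows, 34.6% held a CCAAT box, 16.4% a CHR, 9.23% an E2F site, 14.8% the androgen hexamer and 0.00285% its inverted repeat. Matches of these lengths are thus common, apart from the inverted repeat, which was found in 1 window of all and in none of those of the subunits. Neither NCAPD3 window held the androgen hexamer, which says only that these letters are not in these 300 bases.

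SMC2 and SMC4, the ATPases that form the arms of both rings, fell by similar amounts. SMC2 (chr9:104094260-104141419, plus strand, GRCh38) ranged from 47.9 to 73.7 CPM with R1881 + DMSO, with a median of 60.5 CPM, and was at 38.7, 42.9, 35.96, 41.0 and 42.4 CPM in the 5 enzalutamide libraries. The highest enzalutamide library stayed below the lowest R1881 + DMSO library. The mean fell from 61.6 ± 8.58 (SD, n = 10) to 40.2 ± 2.88 CPM (SD, n = 5), a log2 fold change of -0.60 (SE 0.084, 95% confidence interval -0.77 to -0.42, limma adjusted p = 2.86e-06). SMC4 (chr3:160399274-160434954, plus strand) ranged from 91.4 to 125 CPM with R1881 + DMSO, with a median of 104.5 CPM, against 68.2, 72.3, 61.0, 68.3 and 75.5 CPM with enzalutamide. Here too the groups were apart. The log2 fold change of SMC4 was -0.62 (SE 0.069, interval -0.76 to -0.47, limma adjusted p = 1.12e-07), from a mean of 106 ± 11.7 to 69.1 ± 5.46 CPM. Part of the SMC4 exons, 19.0% of their bases, is shared with TRIM59 on the opposite strand, which was at 14.5 CPM with R1881 + DMSO and 16.4 CPM with enzalutamide, and 2.98% with IFT80, at 11.6 and 18.2 CPM. Both partners were higher with enzalutamide, in the direction opposite to SMC4. The library kit marks strand, but the strand setting of the counting is not stated in the sources used here, so reads of overlapping genes on opposite strands could not be separated with certainty here or below.

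Of the condensin I subunits, NCAPG had the largest log2 fold change and NCAPD2 the smallest. NCAPD2 (chr12:6493356-6531955, plus strand), a HEAT-repeat subunit, ranged from 111 to 129 CPM with R1881 + DMSO, with a median of 123 CPM. In the enzalutamide libraries it was at 81.2, 85.7, 82.8, 81.2 and 82.9 CPM. The groups were clearly separated although the change was modest, from a mean of 121 ± 5.86 to 82.8 ± 1.80 CPM. Its log2 fold change was -0.54 (SE 0.037, interval -0.62 to -0.46, limma adjusted p = 4.57e-11). MRPL51, on the opposite strand, shares 5.92% of the NCAPD2 exon bases and was at 133 and 115 CPM in the 2 groups.

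NCAPG (chr4:17810979-17844865, plus strand), the other HEAT-repeat subunit of condensin I and the gene whose promoter held a CHR and a pair of E2F sites, ranged from 41.1 to 60.9 CPM with R1881 + DMSO, with a median of 47.9 CPM. With enzalutamide it was at 19.7, 19.9, 17.7, 21.3 and 22.6 CPM. The lowest R1881 + DMSO library was thus well above the highest enzalutamide library, and the mean fell by 58.9%, from 49.2 ± 6.11 to 20.2 ± 1.81 CPM. The log2 fold change of NCAPG was -1.26 (SE 0.077, interval -1.42 to -1.10, limma adjusted p = 8.75e-12). Of its exon bases 33.7% are shared with LCORL on the opposite strand, and LCORL was at 15.9 CPM with R1881 + DMSO and 17.8 CPM with enzalutamide, a difference opposite in direction to that of NCAPG. NCAPH (chr2:96335766-96377091, plus strand), the kleisin of condensin I, ranged from 28.3 to 38.1 CPM with R1881 + DMSO (median 32.0 CPM) and was at 16.3, 18.3, 16.7, 16.2 and 16.8 CPM with enzalutamide. Every enzalutamide library was below every R1881 + DMSO library. The mean fell from 32.2 ± 3.52 to 16.9 ± 0.868 CPM, a log2 fold change of -0.91 (SE 0.069, interval -1.05 to -0.76, limma adjusted p = 2.73e-10).

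The condensin II subunits did not move alike. NCAPD3 (chr11:134150113-134225504, minus strand), the HEAT-repeat counterpart of NCAPD2, was at 1785 to 2026 CPM with R1881 + DMSO, with a median of 1896 CPM, and at 74.1, 74.7, 68.5, 70.0 and 74.0 CPM with enzalutamide. These values rest on 26736 to 45171 reads per R1881 + DMSO library and on 1472 to 1785 reads per enzalutamide library, so counting error is small in both groups. Within each group the libraries lay close together, and the gap between the groups was far wider than their spread. The mean fell by 96.2%, from 1907 ± 88.4 to 72.3 ± 2.82 CPM, and the log2 fold change was -4.71 (SE 0.036, interval -4.79 to -4.64, limma adjusted p = 1.34e-26). No gene of the 17046 tested had a smaller p, and 11 genes had a lower log2 fold change. The value lay among those of KLK2, TMPRSS2 and FKBP5.

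NCAPD3 shares exon bases with VPS26B (1.33%) and JAM3 (10.1%) on the opposite strand. VPS26B, a subunit of the retromer sorting complex, was at 204 ± 5.07 CPM with R1881 + DMSO and 107 ± 2.42 CPM with enzalutamide (log2 fold change -0.92, SE 0.028, limma adjusted p = 5.22e-17). JAM3, a junctional adhesion molecule, rose from 1.22 ± 0.259 to 3.12 ± 0.607 CPM (log2 fold change 1.07, SE 0.12, limma adjusted p = 9.97e-08), so the 2 neighbours moved in opposite directions. The nearest tested genes that do not overlap NCAPD3 were THYN1, 22775 bases away on the side of higher coordinates, and the pseudogene PTP4A2P2, 25784 bases away on the other side. THYN1 also fell (log2 fold change -1.25, SE 0.044, limma adjusted p = 7.13e-16), and PTP4A2P2, whose reads can be confused with those of its parent gene, had a log2 fold change of -0.23 (limma adjusted p = 0.216). Counts per gene do not show which NCAPD3 transcripts were present.

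NCAPG2 (chr7:158631169-158704804, minus strand), the counterpart of NCAPG, ranged from 59.3 to 78.4 CPM with R1881 + DMSO (median 66.7 CPM) and was at 39.1, 37.4, 35.2, 38.3 and 40.4 CPM with enzalutamide. The groups did not overlap. Its mean fell from 68.5 ± 8.30 to 38.1 ± 1.96 CPM, with a log2 fold change of -0.83 (SE 0.072, interval -0.98 to -0.68, limma adjusted p = 2.41e-09). NCAPH2 (chr22:50508224-50524780, plus strand), the kleisin of condensin II, ranged from 14.1 to 24.0 CPM with R1881 + DMSO (median 18.9 CPM). With enzalutamide it was at 15.6, 12.8, 18.0, 14.3 and 12.4 CPM, and 3 of these 5 libraries lay within the range of R1881 + DMSO. NCAPH2 was thus the only subunit whose groups overlapped. Its mean went from 19.0 ± 3.06 to 14.6 ± 2.27 CPM, a log2 fold change of -0.36 (SE 0.11, interval -0.58 to -0.14, limma adjusted p = 0.00524). SCO2, on the opposite strand, shares 19.2% of the NCAPH2 exon bases and fell by 0.38 on the log2 scale (SE 0.13, limma adjusted p = 0.0193), from 10.2 to 7.68 CPM.

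**Figure D2:**
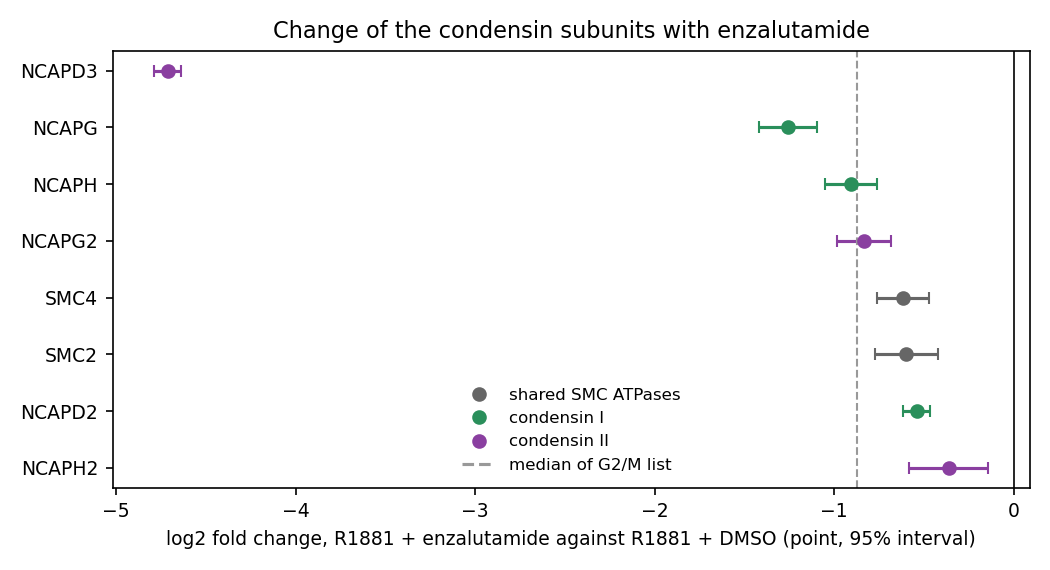
Log2 fold change of each condensin subunit gene, R1881 + enzalutamide minus R1881 + DMSO, from limma on log2(CPM + 0.5), with 95% confidence intervals. All 8 intervals lie below 0, and NCAPD3 at -4.71 stands apart from the other 7, which lie between -1.26 and -0.36.

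Condensin I was then compared with condensin II within each library by the log2 ratio of each subunit to its counterpart, in which the scaling of the library cancels. The 3 ratios were tested with two-sided exact permutation tests over all 3003 regroupings of the libraries, for which the smallest possible p is 0.000333. The NCAPD2/NCAPD3 ratio ranged from -4.08 to -3.81 with R1881 + DMSO and was at 0.13, 0.20, 0.27, 0.21 and 0.16 with enzalutamide, so that a ratio below 0 in every library of the former group became one above 0 in every library of the latter. The mean ratio rose by 4.17, from -3.98 ± 0.082 (SD, n = 10) to 0.20 ± 0.053 (SD, n = 5), with an exact permutation p = 0.000333 (0.0005 after Benjamini-Hochberg adjustment over the 3 ratios).

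For the other HEAT-repeat pair the shift went the other way. The NCAPG/NCAPG2 ratio ranged from -0.64 to -0.32 with R1881 + DMSO and was at -0.97, -0.89, -0.97, -0.84 and -0.83 with enzalutamide, without overlap. Its mean changed from -0.47 ± 0.11 to -0.90 ± 0.070, a difference of -0.43 (exact permutation p = 0.000333, adjusted 0.0005), so the condensin I member of this pair lost more than its condensin II counterpart. The NCAPH/NCAPH2 ratio of the kleisins had the same direction but a wider spread. It ranged from 0.28 to 1.23 with R1881 + DMSO and was at 0.07, 0.51, -0.11, 0.17 and 0.42 with enzalutamide, with overlap between the groups. The mean difference was -0.54, from 0.76 ± 0.33 to 0.21 ± 0.25 (exact permutation p = 0.00799, adjusted 0.00799). Against the R1881 + DMSO libraries 51 to 55 alone the difference was -0.80 (exact permutation p = 0.00794), and against libraries 71 to 75 alone it was -0.28 (exact permutation p = 0.0794). The shift of the kleisin ratio therefore did not pass the threshold against one of the 2 series, whereas the other 2 ratios differed against either series with an exact permutation p of 0.00794, the smallest that 5 against 5 allows.

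**Figure D3:**
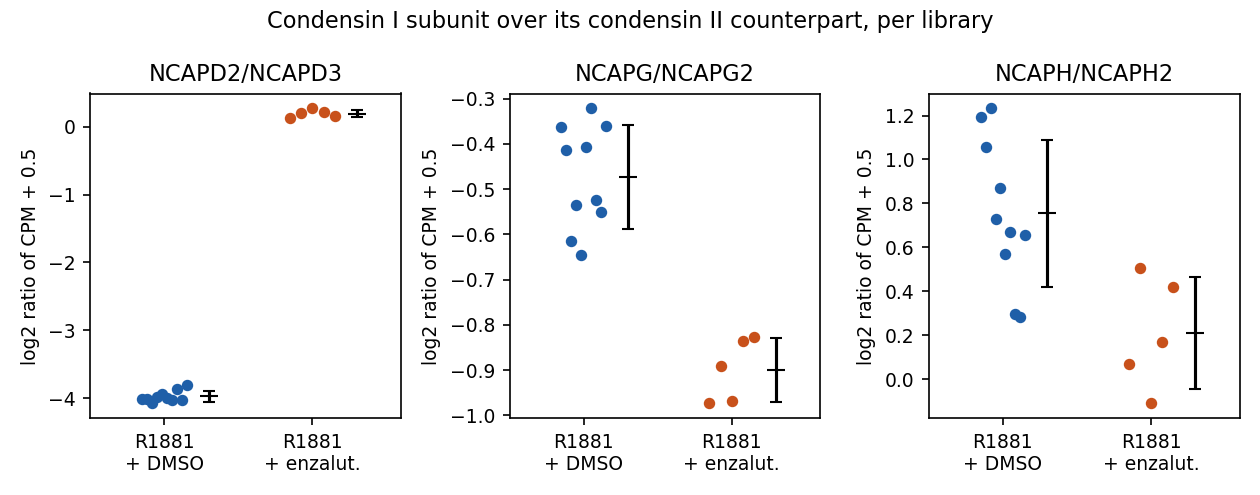
Log2 ratio of each condensin I subunit to its condensin II counterpart in every library, by group, with the mean and SD; the 3 panels have different vertical scales. NCAPD2/NCAPD3 rises by 4.17 with enzalutamide, NCAPG/NCAPG2 differs by -0.43 and NCAPH/NCAPH2 by -0.54, the last with overlap between the groups.

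To compare levels between genes, CPM were divided by the length in kilobases of the union of a gene's annotated exons (GENCODE v44). With R1881 + DMSO, NCAPD3 was at 102 ± 4.73 CPM per kilobase, followed by NCAPD2 at 18.7 ± 0.905, SMC4 at 13.0 ± 1.43, NCAPG at 10.2 ± 1.26, NCAPG2 at 9.64 ± 1.17, SMC2 at 9.51 ± 1.33, NCAPH at 4.92 ± 0.538 and NCAPH2 at 4.26 ± 0.685. In this order NCAPD3 was clear of NCAPD2, NCAPD2 of SMC4 and SMC2 of NCAPH, and the other neighbours overlapped in range. NCAPD3 made up 57.5% to 60.8% of the summed level of the 8 genes in a library. With enzalutamide the order was NCAPD2 at 12.8 ± 0.279, SMC4 at 8.46 ± 0.668, SMC2 at 6.21 ± 0.445, NCAPG2 at 5.36 ± 0.275, NCAPG at 4.17 ± 0.374, NCAPD3 at 3.86 ± 0.151, NCAPH2 at 3.28 ± 0.509 and NCAPH at 2.58 ± 0.133 CPM per kilobase. The ranges of SMC2 and NCAPG2 overlapped, as did those of each neighbour from NCAPG down to NCAPH. NCAPD3 had thus gone from the highest of the 8 genes to a level among the other subunits, at 8.06% to 8.54% of the sum. Among the 13829 genes of the table that matched the annotation by symbol, its rank by CPM per kilobase went from 459 to 7728. That rank rests on the length of the annotated exons. Without division by length, its rank by mean CPM among all 17272 genes went from 23 to 3181.

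The length used matters for the level of NCAPD3, since its annotated exons cover 18698 bases and its canonical transcript 7369. Per kilobase of the canonical transcript, NCAPD3 was at 259 CPM with R1881 + DMSO, which was 71.8% to 74.5% of the sum of the 8 genes, and at 9.80 CPM with enzalutamide, or 14.04% to 14.8%. By this length it came after NCAPD2 and SMC4 with enzalutamide, next to NCAPG2 at 9.40 CPM per kilobase, whose range it overlapped. Its place at the top with R1881 + DMSO was the same by either length, but the order below it depended on the length. By the canonical transcript, NCAPD2 overlapped SMC4 in range with R1881 + DMSO. NCAPG2 at 16.9 CPM per kilobase was then clear of NCAPG at 10.7, and NCAPH2 at 5.69 came before NCAPH at 5.34.

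**Figure D4:**
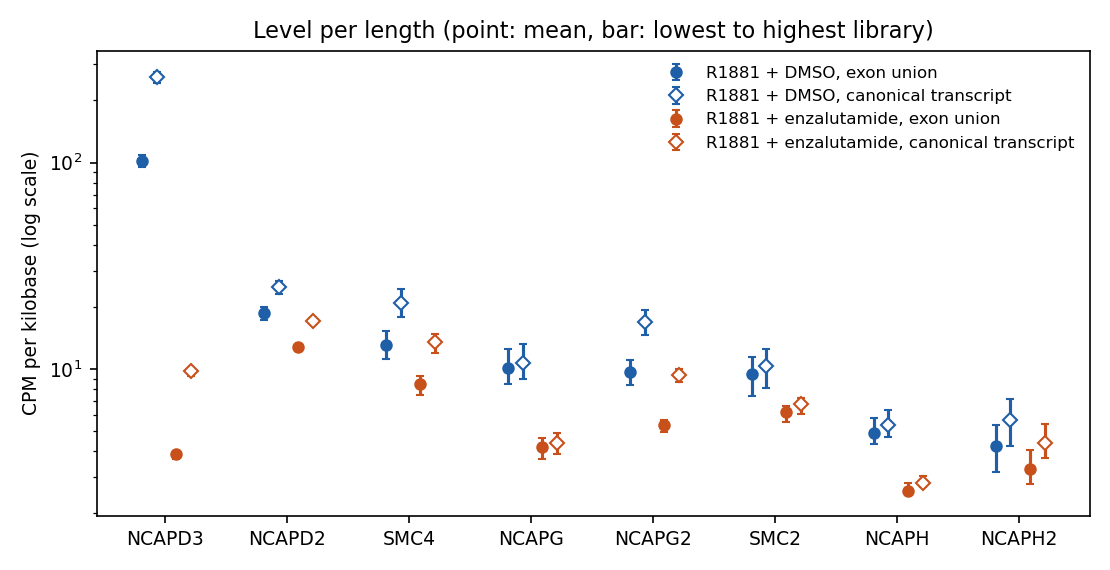
Level of the 8 condensin subunit genes in CPM per kilobase on a log axis, as the mean of each group with bars from the lowest to the highest library. Filled points use the length of the annotated exons and open points that of the canonical transcript. By annotated exons, NCAPD3 is at 102 with R1881 + DMSO and at 3.86 with enzalutamide, where the 8 genes lie between 2.58 and 12.8 CPM per kilobase.

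Genes that act on or with condensin mostly fell too. Of 14 partners and regulators, 13 were called lower, 0 higher and 1 did not pass the test, with a median log2 fold change of -0.87, beside 32.7% called lower, 29.8% called higher and a median of -0.01 over all genes tested. The lowest were MKI67, which coats mitotic chromosomes (-1.25, limma adjusted p = 3.27e-12), AURKB, the kinase of the chromosomal passenger complex (-1.09, limma adjusted p = 6.22e-11), and CCNA2, the cyclin of S and G2 phase (-1.02, limma adjusted p = 4.51e-10). MKI67 went from 108 to 45.0 CPM, AURKB from 12.01 to 5.36 CPM and CCNA2 from 37.5 to 18.2 CPM, each without overlap between the groups. At the other end of the list, MCPH1, an inhibitor of condensin II in interphase, fell by 0.51 (SE 0.052, limma adjusted p = 3.51e-08), from 35.8 to 25.1 CPM. RB1, the retinoblastoma protein gene, was at 97.2 ± 7.47 and 89.3 ± 5.52 CPM (log2 fold change -0.12, limma adjusted p = 0.0587).

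The cell cycle lists moved in the same direction as the subunits. The partner list and the G2/M list share genes, MKI67 and AURKB among them. Of 43 S phase genes 41 were called lower and 0 higher, with a median log2 fold change of -0.81, and of 52 G2/M phase genes 51 were called lower and 1 higher, with a median of -0.88. Over all genes tested, 32.7% were called lower and 29.8% higher, with a median of -0.01. The summed G2/M expression lay between 3420 and 4066 CPM with R1881 + DMSO and between 2238 and 2426 CPM with enzalutamide, and the summed S phase expression between 2493 and 2986 and between 1353 and 1512 CPM. Set against the G2/M list, NCAPG was among the genes with the larger changes, with 2 of 52 lower in log2 fold change, and NCAPH had 20 and NCAPG2 33 below it. SMC2 and SMC4 had 41 each, NCAPD2 43 and NCAPH2 45 below them, toward the smaller changes of the list. NCAPD3 alone lay outside its range, with 0 of the 52 G2/M genes and 0 of the 43 S phase genes at a lower value. The part of the cell cycle in the changes of the subunits was not tested.

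Genes of the other complexes built on SMC proteins were counted in the same way, against the same 32.7% lower and 29.8% higher among all genes tested. Of 17 genes of cohesin, the ring that holds sister chromatids together, and its regulators, 11 were called lower, 1 higher and 5 did not pass the test, with a median log2 fold change of -0.27. The lowest were ESCO2, an acetyltransferase of cohesin in S phase (-1.15, limma adjusted p = 7.99e-10), CDCA5, or sororin, which stabilises cohesion (-1.01, limma adjusted p = 1.73e-11), and SGO1, or shugoshin, which protects cohesin at centromeres (-0.97, limma adjusted p = 9.04e-09, listed in the table under an older symbol). STAG2, a core subunit, was higher (219 and 250 CPM, log2 fold change 0.19, limma adjusted p = 0.00352), and MAU2, of the cohesin loader, was at 51.8 and 54.9 CPM (0.09, limma adjusted p = 0.319). Of 8 genes of the SMC5/6 complex, which acts in DNA repair, 2 were called lower, 3 higher and 3 did not pass, shares near those of all genes, with a median of 0.04. SMC6, one of its ATPases, rose from 17.1 ± 1.56 to 28.8 ± 2.40 CPM (0.74, SE 0.067, limma adjusted p = 5.74e-09) and NSMCE1 from 71.3 to 89.3 CPM (0.32, limma adjusted p = 6.80e-07). SLF1, which recruits the complex to DNA damage, fell from 19.2 to 10.7 CPM (-0.81, limma adjusted p = 4.09e-09), SLF2 had a log2 fold change of -0.14 (limma adjusted p = 0.0232), a call lost with edgeR, with library totals set to 1000000 and against libraries 51 to 55 alone, and NSMCE3 was at 27.6 and 26.7 CPM (-0.05, limma adjusted p = 0.38). The other core subunits of cohesin on the list were lower. RAD21 was at -0.27 (limma adjusted p = 0.000246) and STAG1 at -0.44 (limma adjusted p = 1.33e-05). The cohesin ATPases SMC1A and SMC3 were at -0.39 and -0.19 (limma adjusted p = 3.03e-08 and 0.00197). The ATPases SMC2 and SMC4 of condensin thus fell, as did those of cohesin, while SMC6 rose in the same libraries. SMC5, the other ATPase of SMC5/6, was at 0.20 (limma adjusted p = 0.012), with overlap between the groups.

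Within R1881 + DMSO, the 2 number series were not alike in the subunit genes. The mean log2 expression in libraries 71 to 75 minus that in libraries 51 to 55 was -0.32 for NCAPG2, -0.31 for SMC2, -0.28 for NCAPH, -0.25 for SMC4, -0.24 for NCAPG and -0.11 for NCAPD3. In two-sided exact permutation tests over 252 regroupings, these 6 of the 8 subunits had p below 0.05, with exact p = 0.0159 for SMC2 and 0.00794 for the other 5. By the same test 12.7% of all 17046 genes were lower in libraries 71 to 75 and 6.88% higher. NCAPD2 differed by -0.05 (exact permutation p = 0.325) and NCAPH2 by 0.24 (exact permutation p = 0.119). In CPM, NCAPG2 was at 76.1 ± 3.23 (SD, n = 5) in libraries 51 to 55 and 61.0 ± 1.28 (SD, n = 5) in libraries 71 to 75, NCAPH at 35.4 ± 1.59 and 29.0 ± 0.651, and NCAPD3 at 1979 ± 50.2 and 1834 ± 44.1. The mean log2 expression of the G2/M genes was 5.65 in libraries 51 to 55, 5.44 in 71 to 75 and 4.76 in the enzalutamide libraries, and that of the S phase genes 5.48, 5.33 and 4.56. The lists thus differed between the series in the same direction as the 6 subunits, and the part of either in the other was not tested.

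Taken against each series alone, the fold changes kept their direction and their calls. They were -0.75 against libraries 51 to 55 and -0.44 against 71 to 75 for SMC2, -0.74 and -0.49 for SMC4, -0.56 and -0.52 for NCAPD2, -1.38 and -1.14 for NCAPG, -1.05 and -0.77 for NCAPH, and -0.99 and -0.67 for NCAPG2. For NCAPD3 they were -4.77 and -4.66, so the difference between the series was small beside the change with enzalutamide. For NCAPH2 the order was inverted, with -0.24 (limma adjusted p = 0.0486) and -0.48, beside -0.36 over all libraries.

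**Figure D5:**
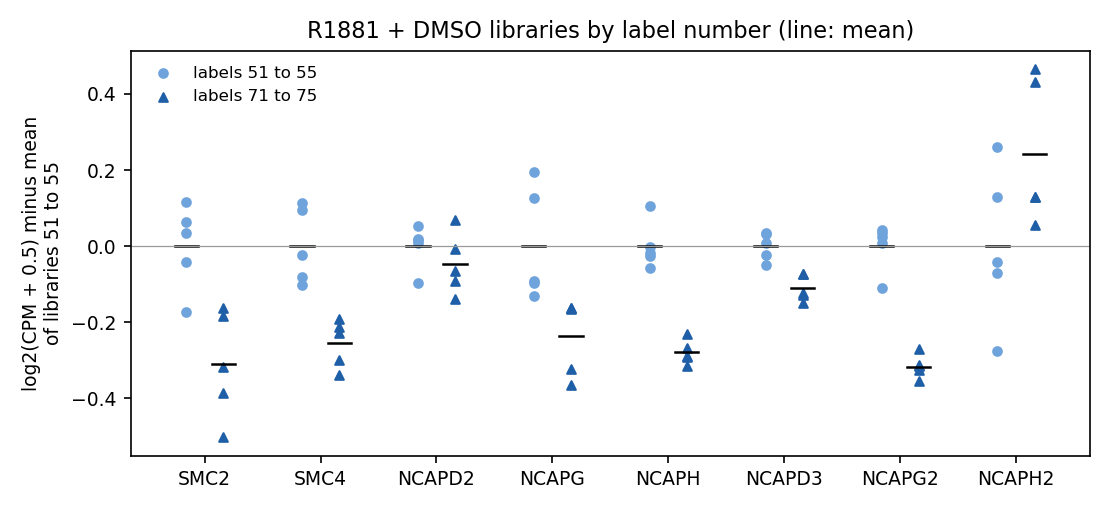
Log2(CPM + 0.5) of each condensin subunit gene in the R1881 + DMSO libraries 51 to 55 and 71 to 75, minus the mean of libraries 51 to 55. Points are single libraries, 5 in each series, and lines are the means of the series. The mean difference of libraries 71 to 75 lies between -0.32 and -0.11 for 6 of the 8 genes, with an exact permutation p below 0.05. It is -0.05 for NCAPD2 and 0.24 for NCAPH2.

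The subunits also differed in how they varied between libraries of one series. After the mean of its number series was subtracted from each library, SMC4 and NCAPG had a Pearson r of 0.90 over the 15 libraries, SMC4 and SMC2 of 0.84, and NCAPG and SMC2 of 0.78. NCAPH2 ran opposite to these genes, with r of -0.82 with SMC2, -0.77 with SMC4 and -0.67 with NCAPG, and NCAPD2 lay between -0.14 and 0.47 with the other 7. The genes most like NCAPG by this measure, among 12163 with a mean of at least 5 CPM, were EEF1E1 (r = 0.94), USP1 (0.92) and PICALM (0.91), and those most like NCAPD3 were DYRK2 (0.92), TTC14 (0.89) and the pseudogene UQCRBP1 (0.89). The 3 genes like NCAPG were called lower with enzalutamide, at -0.33, -0.28 and -0.43, whereas of those like NCAPD3 DYRK2 was at -0.14 (limma adjusted p = 0.0769) and TTC14 and UQCRBP1 were higher, at 0.21 and 0.15. These correlations describe values that share their libraries and thus their depth and base composition, and they carry no test. The GC content of the canonical transcript was 37.4% for SMC2, 36.6% for SMC4 and 38.7% for NCAPG, 43.96% for NCAPG2, 46.1% for NCAPH, 47.3% for NCAPD3 and 51.6% for NCAPD2, and at 61.3% highest for NCAPH2. When a spline on GC content was fitted and subtracted in every library, a step chosen after the data were seen, the log2 fold change was -0.29 for NCAPH2 (limma adjusted p = 8.59e-05), -4.69 for NCAPD3 and -1.23 for NCAPG.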

How the data were processed

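Polyadenylated RNA of LNCaP cells was sequenced in 15 libraries. The authors sequenced single-end reads with a stranded kit, mapped them to GRCh38 with STAR and used featureCounts for gene counts. The submitters' processing notes also name bcl2fastq 2.17. Versions of STAR and featureCounts, the annotation and the strand setting are not stated in the sources used here. The deposited signal, which the methods call CPM, summed to between 985580 and 1078567 per library, and 100% of the entries corresponded to whole reads (tolerance 0.01 reads), from which the depth was recovered as between 15830745 and 25416052 reads per library. Intervals are those of the mean log2 fold change and rest on the spread between libraries. The group sizes are those of the sample labels; the methods text gives them the other way round.

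Differences were tested with limma 3.58.1 in R 4.3.3 on log2(CPM + 0.5) for genes with a mean of 0.5 CPM or more, with a mean-variance trend, no covariate besides treatment, and a threshold of 0.05 after Benjamini-Hochberg adjustment. Fold changes are on this log2 scale and understate changes of genes with few reads. The test had been planned for CPM and was kept for the deposited signal, and the recovered reads were tested with edgeR 4.0.16 (quasi-likelihood) and DESeq2 1.42.0 as alternatives. Subunit ratios and the number series were compared with exact permutation tests. The limma, edgeR and DESeq2 fits were tested on simulated data. The subunits and gene lists were chosen with earlier results of these data known. The cell cycle lists are those of Seurat without condensin genes, the other lists were written from general knowledge, and genes without a row were matched by older symbols in RefSeq. Named are the 8 subunits, KLK2, TMPRSS2, FKBP5, genes overlapping or next to a subunit, and the 3 genes most correlated with NCAPG and NCAPD3. Of the partner, cohesin and SMC5/6 lists, the 3 lowest and 2 highest genes are named. The core ring genes of cohesin and the ATPases of SMC5/6 are named too. Some markers of the cell type check are not reported here. All 55 pairs of libraries of the same group differed beyond sampling noise (lowest chi-square per degree of freedom 1.63). Other alternatives were the pseudocount, filter, scaling, a block for the replicate number, each number series alone, gene length, each library left out and, chosen after the data were seen, removal of the GC trend (a spline with 5 degrees of freedom, for the 80.1% of genes matched by symbol).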

Additional observations from a re-analysis of the deposited data

Results flagged for a closer look

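Of 22 groups of libraries examined, 0 held a library that stood apart from the others of its group in a subunit gene or ratio by Dixon's test, where chance gives about 1.1. Between the R1881 + DMSO libraries 51 to 55 and 71 to 75, which the labels give the same treatment, 6 of the 8 subunits differed in a two-sided exact permutation test, each lower in libraries 71 to 75, beside 12.7% of all genes tested that were lower and 6.88% that were higher. The differences in mean log2(CPM + 0.5), libraries 71 to 75 minus 51 to 55, were -0.31 for SMC2 (exact permutation p = 0.0159), and -0.25 for SMC4, -0.24 for NCAPG, -0.28 for NCAPH, -0.11 for NCAPD3 and -0.32 for NCAPG2 (each exact permutation p = 0.00794, the smallest that 5 against 5 libraries can give). The labels do not say what the series numbers stand for, and no cause was tested.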

How the results depend on the processing

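Of the alternatives for the fold changes, counts and ratios, 344 were classed as unchanged. For fold changes and ratios this meant the same direction and side of the threshold. For counts it meant only a number not far from that of the main test. The number of genes called lower, from 4288 to 5662 over the alternatives, was classed as unchanged throughout. The exceptions were the log2 NCAPH/NCAPH2 ratio, whose difference against libraries 71 to 75 alone was -0.28 (exact permutation p = 0.0794), and the SMC5/6 genes called lower, which numbered 1 with edgeR, against libraries 51 to 55 alone and with library totals set to 1000000; the cause was not tested. Over all alternatives, with each library left out included, the log2 fold change lay between -4.77 and -4.62 for NCAPD3, between -1.38 and -1.14 for NCAPG and between -0.48 and -0.24 for NCAPH2, whose adjusted p (limma, edgeR or DESeq2) reached 0.0486. Leaving out single libraries gave -0.44 to -0.31 for NCAPH2 and -0.62 to -0.46 for the kleisin ratio (exact permutation p up to 0.025). Library totals set to 1000000 moved the median of all genes by 0.0849 on the log2 scale, and 39.3% of called genes were then lower, beside 52.3% with the deposited scaling. Same-numbered libraries of the 2 groups did not deviate together (r from -0.11 to 0.13 in 5 pairs, 0 of 5 best with their own number). With a replicate block, NCAPD3 was at -4.70, NCAPH2 at -0.46 (limma adjusted p = 0.000466), and 5268 genes were called lower and 4775 higher, with no subunit call changed. That fit draws its fold changes only from libraries whose replicate number occurs in both groups, so the other R1881 + DMSO libraries do not enter them. Levels per kilobase with R1881 + DMSO were higher by the canonical transcript than by the annotated exons, from the same reads. They went from 13.0 to 20.8 for SMC4, 18.7 to 25.03 for NCAPD2 and 102 to 259 for NCAPD3. For NCAPG2 they went from 9.64 to 16.9 and for NCAPH2 from 4.26 to 5.69. NCAPH2 rested on 236 to 520 reads per library with R1881 + DMSO and 274 to 387 with enzalutamide.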
